A study of Aspergillus niger with 9 samples.

Results

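The catalase genes of the filamentous fungus Aspergillus niger were followed in the mycelium of 3 strains grown in liquid shaken culture. A gene was taken as a catalase gene when the description of its closest SwissProt protein, as given in the authors' annotated table, held the word catalase. The table lists 11187 genes, of which 8074 have a SwissProt match and 10 met this rule. The deletion strains ΔaslA and ΔaslB were set against the strain MA234.1, whose genotype the labels do not give. RNA from biological triplicates of each strain, 9 libraries in all, was made into stranded poly(A) libraries and sequenced in paired reads of 50 bp. The labels name a 16 h culture in minimal medium with 25 mM glucose, enriched with casamino acids (0.2%) and yeast extract (0.5%), and a 4 h culture in minimal medium with 25 mM xylose. A library's own culture is not stated, so strain and culture cannot be told apart where they differ together. The number of independent transformants behind each deletion strain is not stated, and the deleted genes could not be matched to the table by name, so the deletions were not checked here.

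Catalases of the kind followed here are haem enzymes that break hydrogen peroxide down to water and oxygen. Catalase-peroxidases, a separate protein family of bacterial ancestry, do the same and can also use the peroxide to oxidise other molecules. In filamentous fungi, hydrogen peroxide is made by the acyl-CoA oxidases of peroxisomes, by respiration and by oxidases such as glucose oxidase, and different catalases serve the peroxisome, the cytosol, the cell wall or the medium. In Aspergillus nidulans, catA transcript is stored in spores and catB is a catalase of growing hyphae. Mycelium of A. niger is an industrial source of catalase.

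The 9 libraries held between 11321882 and 19110786 counts assigned to genes. After scaling by edgeR's TMM method, 3 counts corresponded to between 0.158 and 0.275 CPM (counts scaled to a common library size), and levels below this are poorly resolved. The 3 ΔaslB libraries differed from each other. In log2 CPM of 9568 genes, ΔaslB replicate 2 resembled MA234.1 (Pearson's r 0.970 to 0.978) more than ΔaslA (0.777 to 0.798). The opposite held for ΔaslB replicate 3, with r of 0.967 to 0.984 for ΔaslA and 0.772 to 0.777 for MA234.1. ΔaslB replicate 1 lay between, with r of 0.922 to 0.941 for ΔaslA and 0.798 to 0.803 for MA234.1. These correlations are across genes, which are not independent replicates. Since the deletions were not checked here, it cannot be told from these files whether these libraries carry the strain that their label gives, and every ΔaslB mean and fold change below rests on the labels. Comparisons with ΔaslB are therefore given with and without single libraries. ΔaslA replicate 2 also stood apart from the other ΔaslA libraries, less far: its counts differed from theirs with a chi-square per degree of freedom of 79.4 and 80.3, against 2.37 between the other two, and r was 0.971 and 0.973, against 0.991. It held the extreme value of the 9 libraries for 37.3% of all genes and for 3 of the 10 catalase genes, katG, ATCC64974_710 and ATCC64974_10470, which were lowest there.

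The 10 genes fall into 3 families by their annotated protein domains. The catalase-peroxidase is katG (ATCC64974_21630, contig 3, 3208539 to 3210828, minus strand). It carries 2 peroxidase domains, no catalase domain and no predicted secretion signal, and its closest SwissProt entry is the katG of A. niger itself. Another 3 genes encode catalases that end in the extra C-terminal domain of the large-subunit class. They are catR (ATCC64974_21640, contig 3, 3212396 to 3214816, plus strand), a catB-like gene (ATCC64974_21820, contig 3, 3279036 to 3281509, plus strand) and a catA-like gene (ATCC64974_710, contig 1, 250920 to 253207, minus strand). The catR protein, a known catalase of A. niger, has a predicted secretion signal by both predictors in the table. The catB-like protein, closest to catalase B of A. oryzae, has one by only 1 of the 2, and the catA-like protein, closest to catalase A of A. fumigatus, by neither.

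The other 6 genes encode catalases without the C-terminal domain, and none has a predicted secretion signal. Their closest SwissProt entries come from distant organisms in most cases, so the symbols name the closest described protein and not a tested function. ATCC64974_5890 (contig 1, 1765648 to 1767499) and ATCC64974_75270 (contig 13, 458024 to 459994) are closest to a catalase of the roundworm Ascaris suum. ATCC64974_61120 (contig 8, 720569 to 722198) and ATCC64974_99540 (contig 17, 1171926 to 1173993) are closest to cta1 of fission yeast, the catalase of Schizosaccharomyces pombe. ATCC64974_33250 (contig 5, 60046 to 62169) is closest to katA, the vegetative catalase of Bacillus subtilis, and ATCC64974_10470 (contig 2, 943000 to 945358) is a second catA-like gene. No protein of the 10 has a predicted membrane-spanning segment, and all 10 genes passed the filter on low counts.

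The largest change was in katG, which fell in ΔaslA. The gene had 63.9, 44.9 and 61.1 CPM in ΔaslA, 679, 1370.2 and 89.5 CPM in ΔaslB, and 2023, 1895 and 1923 CPM in MA234.1. Every ΔaslA library was below every other library, and every ΔaslB library was below every MA234.1 library. The means were 56.6 ± 10.2 CPM in ΔaslA, 713 ± 641 CPM in ΔaslB and 1947 ± 67.4 CPM in MA234.1 (SD, n = 3 each). In ΔaslA against MA234.1 the log2 fold change was -5.10 ± 0.85 (SE; 95% interval -7.02 to -3.18), with an adjusted p of 0.00808 by edgeR's quasi-likelihood test. The call held in all 15 alternative analyses, which used other scalings, filters, tests and sets of libraries. In bulk RNA, fewer cells that express a gene and less of its RNA per cell cannot be told apart.

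Per length, katG ranked near the top in MA234.1 and far lower in ΔaslA. Ranked by CPM per kilobase of gene span among the 9568 tested genes, it stood at 3656, 4590 and 3758 in ΔaslA, at 426, 220 and 2908 in ΔaslB, and at 164, 164 and 163 in MA234.1. The 3 MA234.1 libraries thus gave nearly the same rank, and the ΔaslB libraries gave 3 different ones.

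**Figure D1:**
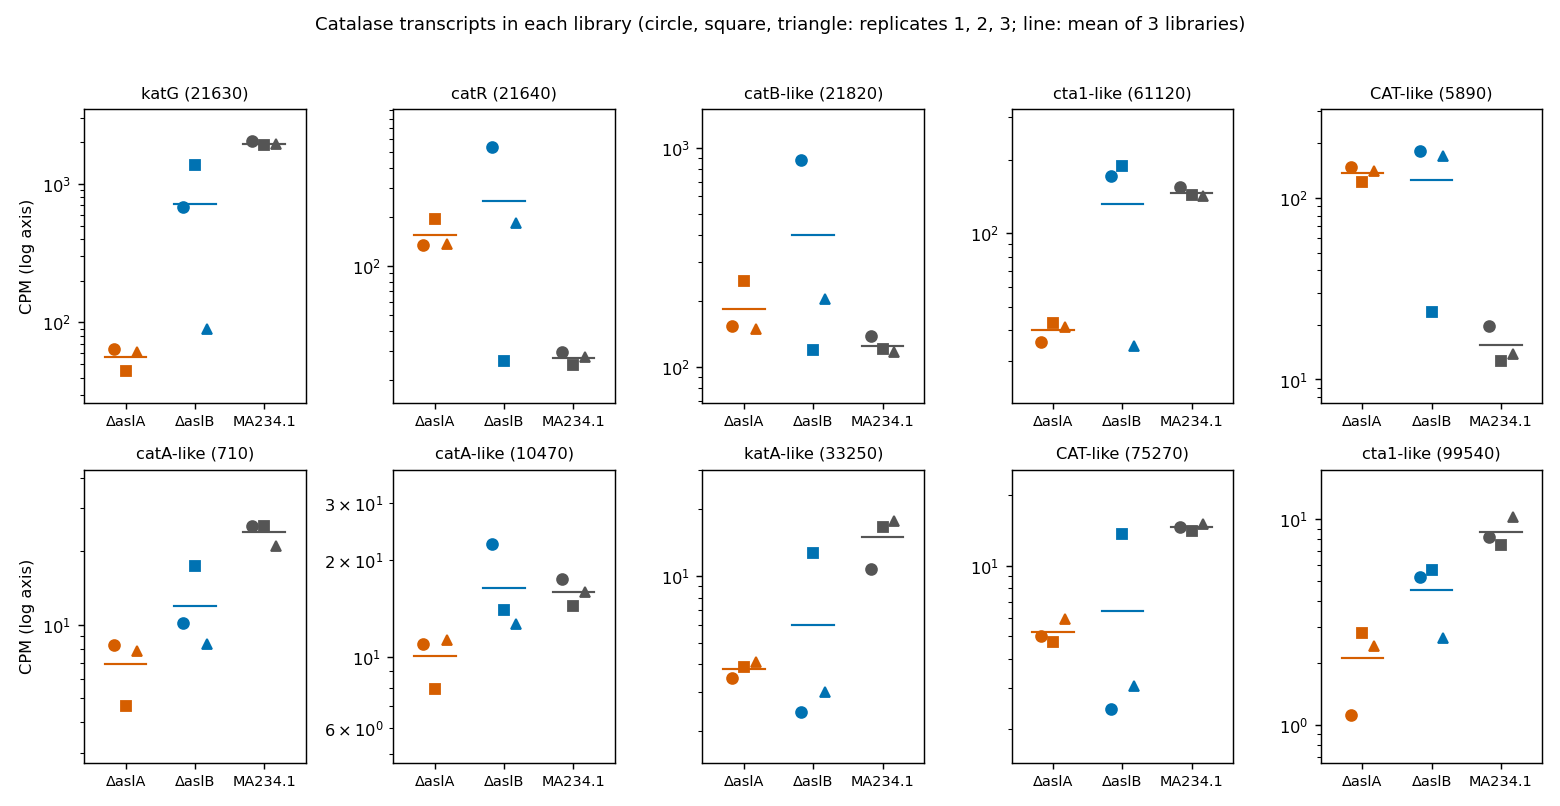
Level of each of the 10 catalase genes in each of the 9 libraries, as TMM-scaled CPM on a log axis, with ΔaslA, ΔaslB and MA234.1 from left to right, a point per library (circle, square and triangle for replicates 1, 2 and 3) and a line at each strain's mean. The gene katG lies at 44.9 to 63.9 CPM in ΔaslA and at 1895 to 2023 CPM in MA234.1, while the 3 ΔaslB points spread between 89.5 and 1370.2 CPM.

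The neighbour of katG, catR, rose in ΔaslA. It had 134, 195 and 136 CPM in ΔaslA, 538, 25.9 and 183 CPM in ΔaslB, and 29.3, 24.5 and 27.4 CPM in MA234.1. All ΔaslA libraries were above all MA234.1 libraries, whereas ΔaslB replicate 2 was within the MA234.1 range and ΔaslB replicate 1 was the highest of the 9. The log2 fold change of ΔaslA against MA234.1 was 2.52 ± 0.82 (SE), with an adjusted p of 0.0325 by edgeR. This call was lost without any single one of the 3 ΔaslA or 3 MA234.1 libraries, with edgeR adjusted p between 0.0569 and 0.0958, and the log2 fold change stayed positive.

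The catB-like gene ATCC64974_21820 had 154, 247 and 149 CPM in ΔaslA, 879, 119.6 and 203 CPM in ΔaslB, and 138, 120.1 and 117 CPM in MA234.1. The ΔaslA libraries were above the MA234.1 libraries by a small margin, and ΔaslB replicate 1 stood apart above all others. Its log2 fold change in ΔaslA against MA234.1 was 0.55 with a 95% interval of -0.88 to 1.99 and an adjusted p of 0.484 by edgeR, and it passed the test only when the 6 libraries of these strains were fitted alone.

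The third gene of this class, the catA-like ATCC64974_710, fell in ΔaslA. It had 8.28, 4.64 and 7.85 CPM in ΔaslA, 10.2, 17.5 and 8.31 CPM in ΔaslB, and 25.3, 25.4 and 21.0 CPM in MA234.1. The 3 strains did not overlap, with ΔaslB in between, although ΔaslB replicate 3 was only just above the highest ΔaslA library. The log2 fold change of ΔaslA against MA234.1 was -1.79 ± 0.35 (SE), with an adjusted p of 0.00816 by edgeR, and the call held in all 15 alternatives. The 3 genes with the C-terminal domain thus did not move one way: catR was higher in ΔaslA than in MA234.1, ATCC64974_710 was lower, and the catB-like gene did not pass the test.

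Among the catalases without that domain, ATCC64974_5890 rose in ΔaslA and 3 others fell. ATCC64974_5890 had 148, 123 and 141 CPM in ΔaslA, 181, 23.4 and 170 CPM in ΔaslB, and 19.8, 12.7 and 13.7 CPM in MA234.1. Every library of either deletion strain was above every MA234.1 library, but ΔaslB replicate 2 by little. The log2 fold change of ΔaslA against MA234.1 was 3.16 ± 0.65 (SE), with an adjusted p of 0.00832 by edgeR, and this call also held in all 15 alternatives.

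The cta1-like gene ATCC64974_61120, the most abundant of this family per kilobase in MA234.1, had 35.7, 42.7 and 41.3 CPM in ΔaslA, 172, 189 and 34.3 CPM in ΔaslB, and 155, 143 and 142 CPM in MA234.1. ΔaslB replicate 3 lay with the low ΔaslA libraries, and ΔaslB replicates 1 and 2 lay above the MA234.1 libraries. The log2 fold change of ΔaslA against MA234.1 was -1.88 ± 0.52 (SE), with an adjusted p of 0.0172 by edgeR. The call was lost without any 1 of the 3 ΔaslA libraries, with edgeR adjusted p between 0.0522 and 0.0590.

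The other cta1-like gene, ATCC64974_99540, was weakly expressed and also fell. It had 1.11, 2.79 and 2.41 CPM in ΔaslA, 5.26, 5.70 and 2.66 CPM in ΔaslB, and 8.25, 7.53 and 10.3 CPM in MA234.1. All MA234.1 libraries were above all libraries of the deletion strains. The log2 fold change of ΔaslA against MA234.1 was -2.04 ± 0.44 (SE), with an adjusted p of 0.00891 by edgeR, and it was called in all 15 alternatives.

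The katA-like gene ATCC64974_33250 had 3.48, 3.90 and 4.12 CPM in ΔaslA, 2.45, 12.7 and 2.99 CPM in ΔaslB, and 10.7, 16.6 and 17.7 CPM in MA234.1. Only ΔaslB replicate 2 reached the MA234.1 range. It fell in ΔaslA by 1.97 on the log2 scale (SE 0.60), with an adjusted p of 0.0252 by edgeR. The call was lost without MA234.1 replicate 2 or 3 or any 1 ΔaslA library, at edgeR adjusted p between 0.0665 and 0.0772.

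The remaining genes did not pass the test. ATCC64974_75270 had 5.03, 4.74 and 5.91 CPM in ΔaslA, 2.45, 13.6 and 3.07 CPM in ΔaslB, and 14.6, 14.0 and 15.1 CPM in MA234.1, with no overlap between MA234.1 and either deletion strain. Its log2 fold change in ΔaslA against MA234.1 was -1.48 (95% interval -2.82 to -0.14), with an adjusted p of 0.0651 by edgeR. Its side of the threshold depended on the analysis, since it passed in 5 of the 15 alternatives. The catA-like ATCC64974_10470 had 10.9, 7.95 and 11.3 CPM in ΔaslA, 22.4, 14.0 and 12.6 CPM in ΔaslB, and 17.4, 14.3 and 15.9 CPM in MA234.1. Its log2 fold change in ΔaslA against MA234.1 was -0.66 (95% interval -1.31 to -0.01), with an adjusted p of 0.0848 by edgeR, and it passed in 2 of the 15 alternatives.

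In ΔaslA against MA234.1, therefore, 7 of the 10 catalase genes passed the test: catR and ATCC64974_5890 were higher, and katG, ATCC64974_61120, ATCC64974_33250, ATCC64974_710 and ATCC64974_99540 were lower. Of all 9568 genes tested, 48.7% passed, 23.6% higher and 25% lower, so the share of catalase genes called higher was near that of all genes and the share called lower was above it. The median log2 fold change was -1.63 over the 10 genes and 0.00 over all genes tested. The libraries of the 2 strains did not overlap for any of the 10 genes, 3 of them higher and 7 lower in ΔaslA. Of all genes 74.7% showed no overlap, 36.8% higher and 37.9% lower. The spread in this test was estimated from all 9 libraries, the unlike ΔaslB libraries among them. With the 6 libraries of ΔaslA and MA234.1 alone, all 10 genes passed, 3 higher and 7 lower, against 69.3% of all genes, 34.4% higher and 34.9% lower. Without ΔaslA replicate 1, 2 or 3, 4 of the 10 passed, near the 34.1%, 36.5% and 35% of all genes that passed in those fits. Without MA234.1 replicate 1, 2 or 3, 6, 5 and 5 passed, against 32.8%, 32.2% and 31.8% of all genes.

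**Figure D2:**
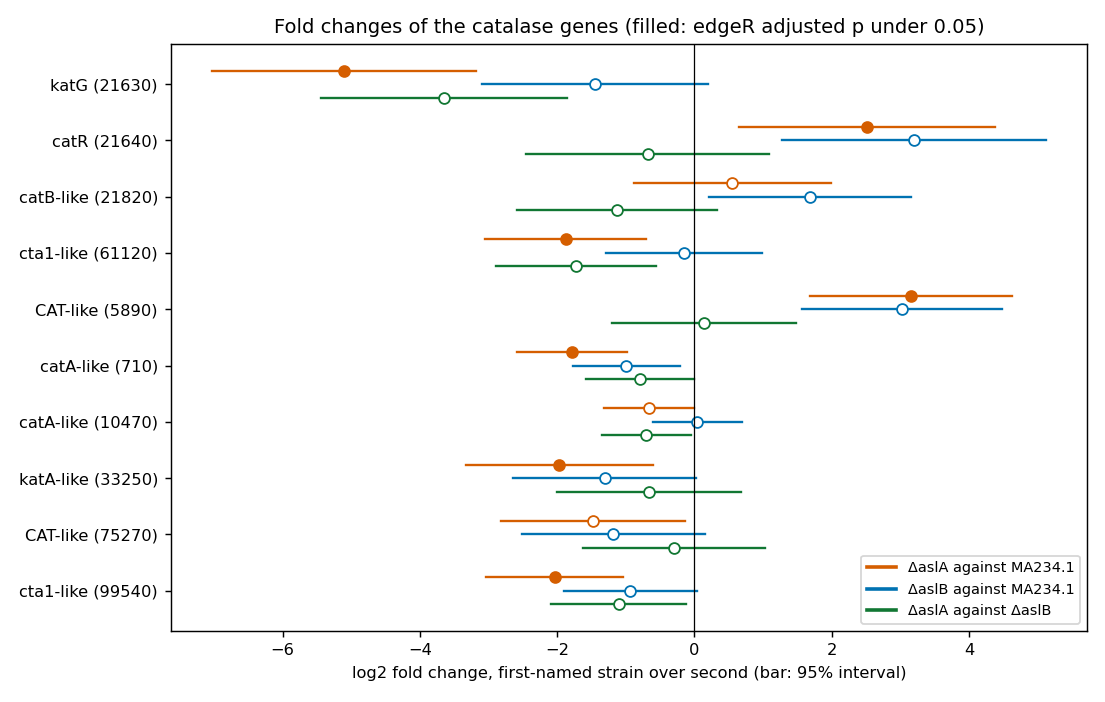
Log2 fold changes of the 10 catalase genes in the 3 comparisons between strains, in a colour each, with 95% intervals from edgeR's quasi-likelihood fit; filled points passed an adjusted p of 0.05. In ΔaslA against MA234.1, katG stands farthest from 0 at -5.10, and catR and ATCC64974_5890 stand above 0 at 2.52 and 3.16; no point is filled in the other comparisons.

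In ΔaslB against MA234.1, none of the 10 catalase genes passed the adjusted edgeR test, and neither did any other gene, 0% of the 9568. At an unadjusted p under 0.05, 4 of the 10 catalase genes passed, against 30.8% of all genes. The largest positive values were 3.20 for catR (95% interval 1.28 to 5.12, edgeR adjusted p 0.0670) and 3.02 for ATCC64974_5890 (1.56 to 4.48, edgeR adjusted p 0.0665). For katG the log2 fold change was -1.45 (95% interval -3.09 to 0.20), with an adjusted p of 0.200 by edgeR, and for the catB-like gene it was 1.68 (0.21 to 3.15), with an adjusted p of 0.130 by edgeR. The libraries of the 2 strains did not overlap for ATCC64974_5890, which was higher in ΔaslB, and for katG, ATCC64974_710, ATCC64974_75270 and ATCC64974_99540, which were lower, and this was so for 36.8% of all genes, 14% higher and 22.8% lower. DESeq2, used as an alternative, called 3 of the 10, ATCC64974_5890 and catR higher and ATCC64974_710 lower, against 18.2% of all genes it tested, 13.6% higher and 4.6% lower.

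This comparison turned on ΔaslB replicate 2. Without that library, 7 of the 10 catalase genes passed the adjusted edgeR test in ΔaslB against MA234.1, against 52.8% of all genes, 26.5% higher and 26.3% lower. In this fit catR (3.74), ATCC64974_5890 (3.52) and the catB-like gene (2.12) were higher on the log2 scale. The genes katG (-2.34, edgeR adjusted p 0.0165), ATCC64974_33250 (-2.46), ATCC64974_75270 (-2.40) and ATCC64974_710 (-1.37) were lower. Of the 7 genes called in ΔaslA against MA234.1, all 7 lay closer to MA234.1 than to ΔaslA, by their mean log2 CPM, in ΔaslB replicate 2. In ΔaslB replicate 3 none was, and in ΔaslB replicate 1 katG, ATCC64974_61120 and ATCC64974_99540 were. Over all 4657 genes called in that comparison, 19.5% were closer to MA234.1 in replicate 1, 90.9% in replicate 2 and 6.74% in replicate 3, so the catalase genes followed the libraries' general placing in replicates 2 and 3.

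ΔaslB replicate 1 held the extreme value for more catalase genes than any other library. It was above all 8 other libraries for catR, the catB-like gene, ATCC64974_5890 and ATCC64974_10470, and below all others for ATCC64974_33250 and ATCC64974_75270. These are 6 of the 10 genes, where 29.0% of all genes tested had their extreme value in this library. MA234.1 replicate 3 had 4 of the 10 against 19.7% of all genes, and MA234.1 replicate 2 had 3 against 17.6%, so an excess of this kind was not particular to ΔaslB replicate 1.

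Between the deletion strains no catalase gene and no other gene, 0% of 9568, passed the adjusted edgeR test in ΔaslA against ΔaslB. At an unadjusted p under 0.05, 5 of the 10 catalase genes passed, against 17.3% of all genes. The largest difference was that of katG, with a log2 fold change of -3.65 (95% interval -5.45 to -1.86) and an adjusted p of 0.147 by edgeR. ATCC64974_61120 followed with -1.72 (-2.89 to -0.56) and an adjusted p of 0.173 by edgeR. The libraries of the deletion strains did not overlap for katG, ATCC64974_710 and ATCC64974_10470, all lower in ΔaslA, against 8.98% of all genes lower in this way. DESeq2 called katG (adjusted p 3.00e-05) and ATCC64974_61120 (adjusted p 0.0251), both lower, and 5.09% of all genes lower. Without ΔaslB replicate 3, edgeR called the same pair, katG at -4.17 and ATCC64974_61120 at -2.18, and 11% of all genes lower. The comparisons above share libraries, so their values for one gene are not independent of each other.

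Summed over the 10 genes, catalase transcript was lower in ΔaslA than in MA234.1 with katG in the sum and higher without it. The sum was 260.1, 304 and 259 CPM per kilobase in ΔaslA, 1096, 815 and 323 in ΔaslB, and 1092, 1016 and 1029 in MA234.1. Without katG, the 9 other genes summed to 232, 284 and 232 CPM per kilobase in ΔaslA, 799.7, 217 and 284 in ΔaslB, and 209, 189 and 189.8 in MA234.1. Neither sum overlapped between ΔaslA and MA234.1. The sums were not tested. The gene katG made up 10.7%, 6.46% and 10.3% of the summed level in ΔaslA, 27.0%, 73.4% and 12.1% in ΔaslB, and 80.9%, 81.4% and 81.6% in MA234.1.

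In ΔaslA the level was spread over several genes. ATCC64974_5890 averaged 27.4% ± 4.77 of the sum in ΔaslA and 0.791% ± 0.165 in MA234.1 (SD, n = 3 each). The catB-like gene averaged 26.7% ± 5.41 in ΔaslA and 4.82% ± 0.267 in MA234.1, and catR averaged 23.2% ± 2.91 in ΔaslA and 1.07% ± 0.0623 in MA234.1 (SD, n = 3 each). ATCC64974_61120 kept a similar share, 8.95% ± 0.740 in ΔaslA and 8.59% ± 0.127 in MA234.1 (SD, n = 3 each), although its own level was lower in ΔaslA. The gene spans include introns, so these shares are approximate.

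**Figure D3:**
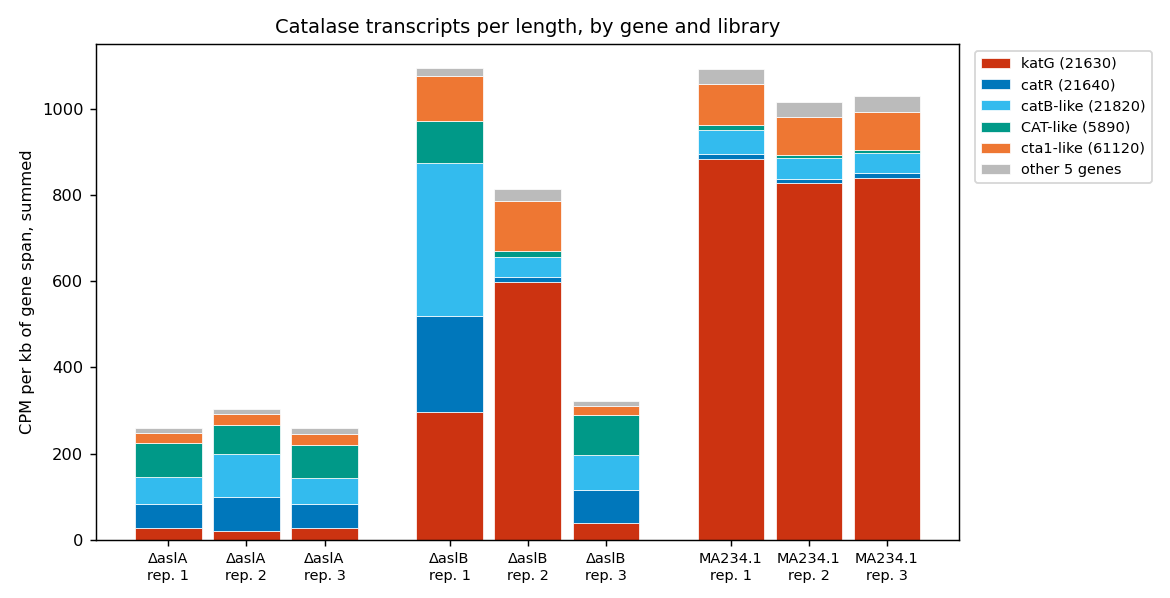
Summed level of the 10 catalase genes in each library, in TMM-scaled CPM per kilobase of gene span, with the 5 most abundant genes as coloured segments and the others in grey, and with ΔaslA, ΔaslB and MA234.1 from left to right. The katG segment takes 6.46% to 10.7% of the ΔaslA bars and 80.9% to 81.6% of the MA234.1 bars.

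The authors' deposited table, which gives 1 FPKM value (fragments per kilobase, scaled to library depth) per gene and strain, placed katG at 33.9 FPKM in ΔaslA, 415 FPKM in ΔaslB and 1128 FPKM in MA234.1. In the authors' deposited table the 10 catalase genes summed to 407 FPKM in ΔaslA, 1042 FPKM in ΔaslB and 1408 FPKM in MA234.1, and katG took 8.32% of the sum in ΔaslA, 39.8% in ΔaslB and 80.1% in MA234.1. The authors' deposited table marks katG, catR and ATCC64974_5890 as differing between ΔaslA and MA234.1, among 13.4% of all genes. It marks catR and ATCC64974_5890 between ΔaslB and MA234.1, among 3.79% of all genes, and katG between ΔaslA and ΔaslB, among 3.39%. The rule behind these marks is not stated, and the authors' deposited table lists a q-value of 0.000295 for ATCC64974_61120 between ΔaslA and MA234.1 without marking it.

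The genes katG and catR lie side by side and are read in opposite directions, with 1567 bases and no annotated gene between their outer ends. In ΔaslA against MA234.1 they moved opposite ways. The catB-like gene lies 64219 bases beyond catR, with 17 genes between. On the far side of katG is ATCC64974_21620, whose closest protein is maoA, a flavin-containing monoamine oxidase, an enzyme that makes hydrogen peroxide. It had 0.739, 0.632 and 0.389 CPM in ΔaslA, 6.34, 4.00 and 0.665 CPM in ΔaslB, and 5.23, 3.36 and 4.30 CPM in MA234.1. It was low in all ΔaslA libraries and in ΔaslB replicate 3, as katG was. In ΔaslB replicate 1, however, ATCC64974_21620 was the highest of all libraries, whereas katG was below every MA234.1 library. The log2 fold change of ATCC64974_21620 in ΔaslA against MA234.1 was -2.84 ± 0.73 (SE) with an adjusted p of 0.0135 by edgeR. It rests on only 10, 12 and 5 counts in the ΔaslA libraries. On the far side of catR, the transporter-like gene ATCC64974_21650 also fell, with a log2 fold change of -2.28 ± 0.62 (SE) and an adjusted p of 0.0166 by edgeR, so that catR rose between neighbours that fell.

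**Figure D4:**
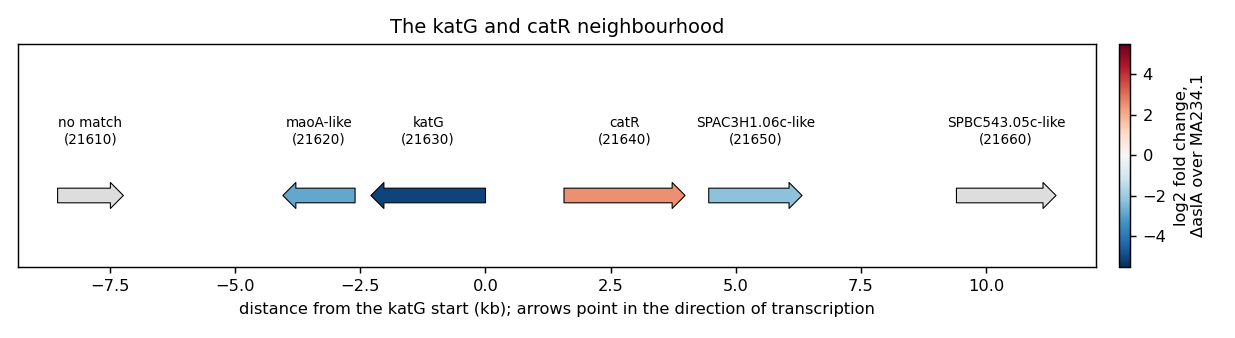
Genes around katG and catR on contig 3, drawn to scale by distance in kilobases from the start of katG. Arrows point in the direction of transcription, colour gives the log2 fold change in ΔaslA against MA234.1, and genes below the count filter are grey; catR is red (2.52) between blue neighbours, katG (-5.10) and ATCC64974_21650 (-2.28).

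The other genes that make or remove hydrogen peroxide were taken as lists by the name of their closest protein. In ΔaslA against MA234.1, genes for oxidases that make hydrogen peroxide and for peroxisome assembly and membrane proteins mostly fell. The counts are read against all 9568 genes tested, of which 23.6% rose and 25% fell. Of 35 oxidase genes tested, 23 fell and 5 rose, with a median log2 fold change of -1.85. Among them, the alcohol oxidase gene AOX1 (ATCC64974_107550) had 1.16 to 1.26 CPM in ΔaslA and 157 to 168 CPM in MA234.1. The copper amine oxidase gene AO-I (ATCC64974_24050) had 6.22 to 6.88 CPM in ΔaslA and 553 to 583 CPM in MA234.1. In ΔaslB, AOX1 had 0.721, 51.0 and 0.582 CPM and AO-I had 24.4, 569.7 and 8.06 CPM, so both were far higher in replicate 2 than in the other ΔaslB libraries. Without MA234.1 replicate 3 or any 1 ΔaslA library, 16 to 18 of the 35 oxidase genes passed, where 31.8% to 36.5% of all genes did. The oxidase list was drawn by name and holds sulfite and sulfhydryl oxidase genes, for which the making of hydrogen peroxide was not checked. Some genes on it that fell were weak in MA234.1 and had no count in any ΔaslA library. Of 22 peroxisome genes, 17 fell and none rose, with a median log2 fold change of -1.37. PEX11 (ATCC64974_88990), which drives the division of peroxisomes, had 70.6 to 74.7 CPM in ΔaslA and 431 to 451 CPM in MA234.1. Its log2 fold change was -2.60, with an adjusted p of 0.00953 by edgeR. ATCC64974_43490 and ATCC64974_17230, close to the peroxisomal protein LPX1, had log2 fold changes of -3.07 and -3.01 with edgeR adjusted p of 0.00813 and 0.0104.

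The other enzymes that remove peroxide were mixed. Of 8 other peroxidase genes tested, 4 rose and 2 fell in ΔaslA against MA234.1, with a median log2 fold change of 0.56. Of all genes, 23.6% rose and 25% fell, so 2 of 8 is the share that fell. Without MA234.1 replicate 2 or 3, only 2 of the 8 rose and 2 fell, where 32.2% and 31.8% of all genes passed. The mitochondrial cytochrome c peroxidase gene ccp1 (ATCC64974_79740) had 171 to 254 CPM in ΔaslA and 1221 to 1224 CPM in MA234.1, and a peroxiredoxin gene close to pmp20 (ATCC64974_72150) had 59.6 to 96.8 CPM in ΔaslA and 632 to 699 CPM in MA234.1. Another gene of the pmp20 kind (ATCC64974_34820) went the other way, with a log2 fold change of 1.95 and an adjusted p of 0.0101 by edgeR. Of 22 thioredoxin and glutathione genes, 10 rose and 4 fell, with a median log2 fold change of 0.80, where 23.6% of all genes rose and 25% fell. Without any 1 MA234.1 library or ΔaslA replicate 2, 8 or 9 of the 22 passed, where 31.8% to 36.5% of all genes did. ΔaslA replicate 2, which stood apart, was the highest of the 9 libraries for 9 of these 22 genes and for 20.4% of all genes. The thioredoxin reductase gene TRR1 (ATCC64974_16500), highest in ΔaslB replicate 1, was among the 10 that rose in ΔaslA against MA234.1. Its log2 fold change was 2.11, with an adjusted p of 0.0145 by edgeR. That call was lost without MA234.1 replicate 2 or 3 (edgeR adjusted p up to 0.0519). The largest fall among the 22 was that of the mitochondrial thioredoxin gene TXN2 (ATCC64974_27170), which had 1.71 to 3.69 CPM in ΔaslA and 256 to 274 CPM in MA234.1.

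Superoxide dismutases, which make hydrogen peroxide from superoxide, were tested as 3 genes together with that of their copper chaperone. Of these 4, sodC (ATCC64974_45950) fell in ΔaslA, with a log2 fold change of -0.78 and an adjusted p of 0.0197 by edgeR, and 1 of 4 is the share of all genes that fell (25%). The call of sodC was lost without any 1 MA234.1 library or ΔaslA replicate 1 or 3 (edgeR adjusted p up to 0.0878). The number of these 4 that fell was 2 without ΔaslA replicate 2, where 1811 of all 9703 genes tested fell. It was 3 without ΔaslB replicate 2, where 2986 of all 9668 fell. With the 6 libraries alone it was 4, where 34.9% of all genes fell. Genes for the synthesis of haem, the cofactor of the catalase families followed here, rose in 4 of 8 cases and fell in none, with a median log2 fold change of 0.99. Of all genes, 23.6% rose and 25% fell. Only 2 of the 8 passed without MA234.1 replicate 2 or 3, where 32.2% and 31.8% of all genes did, and 7 passed without ΔaslB replicate 2, against 61% of all genes. ΔaslA replicate 2 was the highest library for 4 of the 8. HEM13 (ATCC64974_50540), the coproporphyrinogen oxidase gene, had 1820.0 to 2685 CPM in ΔaslA and 489 to 546 CPM in MA234.1. Of 8 stress regulator genes, 2 fell, the share of all genes that fell (25%), and none rose: sho1 (ATCC64974_74420), with a log2 fold change of -1.25 and an adjusted p of 0.00816 by edgeR, and the AP-1-like factor gene pap1 (ATCC64974_29960), with -0.94 and 0.0129. The call of pap1 was lost without ΔaslA replicate 1 or 3 (edgeR adjusted p up to 0.0558), and 5 of the 8 passed without ΔaslB replicate 2, against 61% of all genes. The median log2 fold change of all genes tested was 0.00, against which these medians are read. No gene of any of these lists passed the adjusted edgeR test in ΔaslB against MA234.1 or in ΔaslA against ΔaslB.

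**Figure D5:**
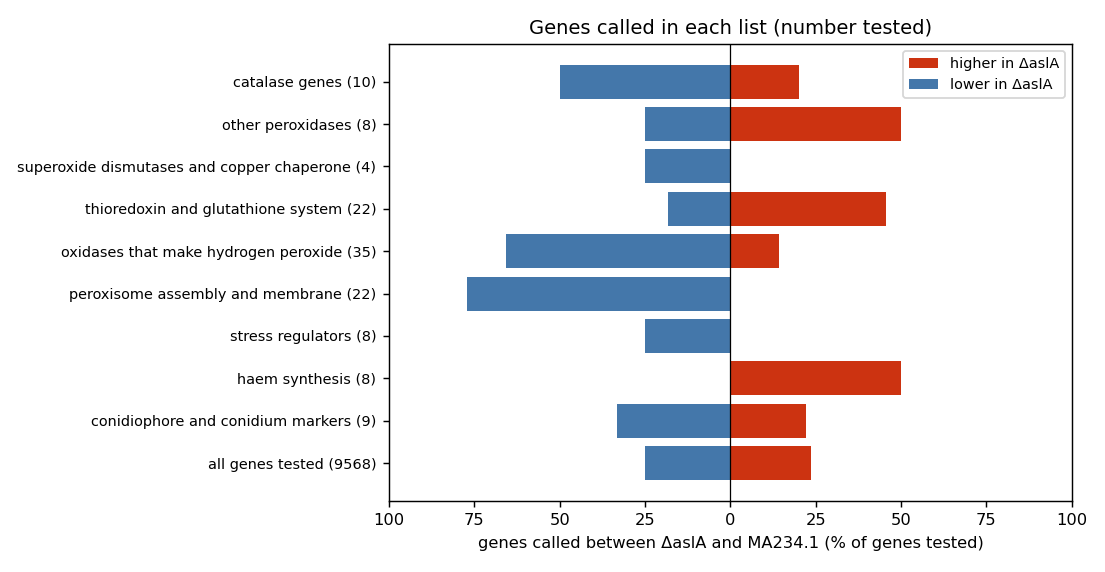
Percent of tested genes called higher (right, red) or lower (left, blue) in ΔaslA against MA234.1 (edgeR adjusted p under 0.05) for the 10 catalase genes, each list of related genes and all genes tested, with the number tested in brackets. The bars for oxidases that make hydrogen peroxide (23 lower, 5 higher of 35) and peroxisome assembly and membrane proteins (17 lower, 0 higher of 22) are mostly lower, and that for haem synthesis has 4 higher and 0 lower of 8.

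The labels call the tissue vegetative mycelium. Markers of conidiophores and conidia, the asexual spores, were present at low levels in all libraries: 13 genes summed to between 119 and 122 CPM in ΔaslA, between 93.8 and 131 CPM in ΔaslB, and between 138 and 150 CPM in MA234.1. Of the 9 tested, 2 rose and 3 fell in ΔaslA, shares near those of all genes (23.6% and 25%). Without any 1 MA234.1 library or ΔaslA replicate 2 or 3, 3 of the 9 passed, near the 31.8% to 36.5% of all genes that did. The regulator gene abaA (ATCC64974_20070) had 16.9 to 21.7 CPM in ΔaslA and 0.825 to 2.01 CPM in MA234.1. A gene closest to brlA (ATCC64974_72370) had 11.7 to 18.7 CPM in ΔaslA and 36.9 to 41.0 CPM in MA234.1. Another gene closest to brlA (ATCC64974_15030) had only 0.622 to 1.55 CPM in ΔaslA and 0.921 to 1.74 CPM in MA234.1. It did not pass the test (log2 fold change -0.62, edgeR adjusted p 0.351). Of the 13, 8 are polyketide synthase genes whose closest protein is wA, the spore pigment synthase of A. nidulans, and 1 of these had no count in any ΔaslA or ΔaslB library. Whether spore-forming cells had a part in the catalase differences was not tested.

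The genes whose profile over the 9 libraries was most like that of katG were found by the root mean square difference of log2 CPM, each gene centred on its own mean, among 6225 candidates. The nearest was a laccase gene, lcc2 (ATCC64974_109710), at 0.219 on the log2 scale, with 3.70, 4.27 and 3.65 CPM in ΔaslA, 56.8, 125 and 7.15 CPM in ΔaslB, and 148, 145 and 151 CPM in MA234.1. The sugar transporter gene STL1 (ATCC64974_16300) followed at 0.243 and a gene close to the quinate permease qutD (ATCC64974_103170) at 0.331. All were on average lowest in ΔaslA and highest in MA234.1, and were ordered replicate 2, replicate 1, replicate 3 from high to low within ΔaslB, as katG was. They were picked for this likeness over the same libraries, so the shared order is not a separate result.

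The other catalases had other neighbours in profile. The nearest to catR, the siderophore transporter gene mirB (ATCC64974_36880), differed from it by 0.404, so that no candidate matched catR as closely as lcc2 matched katG. Among the 3 nearest to the catB-like gene were the transcriptional activator gene HAP2 (ATCC64974_29990) at 0.278 and the peroxiredoxin gene HYR1 (ATCC64974_56030) at 0.286. HYR1 had 475, 124 and 154 CPM in ΔaslB and 121, 125 and 116 CPM in MA234.1, with the same high ΔaslB replicate 1. The nearest to ATCC64974_5890 was acoB (ATCC64974_9890), a mitochondrial aconitate hydratase gene, at 0.141. The nearest to the low catA-like ATCC64974_710 were ENA5 (ATCC64974_6460), a sodium pump gene, at 0.116, dhs-21 (ATCC64974_96390), an L-xylulose reductase gene, at 0.139, and POT1 (ATCC64974_80890), the peroxisomal thiolase gene of fatty acid breakdown, at 0.148. For both ATCC64974_33250 and ATCC64974_75270 the nearest was ard-1 (ATCC64974_74900), an L-arabinitol dehydrogenase gene, at 0.203 and 0.152. These distances describe these libraries only.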

How the data were processed

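The authors deposited whole-number read counts per gene for the 9 libraries, and an annotated table with FPKM per strain, log2 ratios (the second strain named over the first), q-values and marks of differential expression. The submitters' processing notes name HISAT2 2.2.1, Cuffdiff, Subread and featureCounts. Their roles and settings, the strand mode, the treatment of reads that fit several genes and the build of the genome were not found in the labels or headers, so counts of similar catalase genes could share reads.

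The deposited counts were tested with edgeR 4.0.16 (R 4.3.3). Genes were kept by filterByExpr with strain as group (9568 of 11187, 193 genes having no count), scaled by TMM and fitted over all 9 libraries with the quasi-likelihood test. P-values were adjusted by the Benjamini-Hochberg method over all genes tested, with calls at 0.05. SE is the log2 fold change divided by the square root of F. Log2 CPM used a prior count of 2. Levels of different genes were compared per kilobase of annotated gene span. Replicates are labelled as biological triplicates. Counts between replicates of a strain differed by more than sampling noise, with a chi-square per degree of freedom of at least 2.32. The steps were tested on simulated data with the same spread in every strain. This does not show how they behave with libraries as unlike as those of ΔaslB.

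Every catalase gene was described. Of each list, up to 4 genes could be named: those called in ΔaslA against MA234.1, not overlapping, with at least 5 CPM in the higher strain, by size of change, and 5 nearest profiles were kept for katG and 3 for the others. Genes of the brlA and AP-1 kind that this rule did not name are given beside those it named. The catalase genes and the 8 lists were chosen with earlier results of these data known. Some proteins of another kind that matched by a word were removed from the lists by name; the copper chaperone of superoxide dismutase was kept. The count of catalase genes with extreme values in a library was chosen after seeing the data. No sequences are shown. Alternatives were RLE scaling, library totals alone, no filter, DESeq2 1.42.0, the 6 libraries of a comparison alone, a replicate block and leaving out each library.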

Additional observations from a re-analysis of the deposited data

How the results depend on the processing

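The 15 alternatives per value were RLE scaling, totals alone, no filter, DESeq2, the 6 libraries compared, a replicate block and leaving out each of the 9 libraries. In ΔaslA against MA234.1, where 7 catalase genes and 4657 genes in all were called, leaving out 1 library gave 4 to 9 catalase genes and 3078 (without MA234.1 replicate 3) to 5901 genes. The genes katG, ATCC64974_5890, ATCC64974_710 and ATCC64974_99540 were called in all 15, and no sign turned. In ΔaslB against MA234.1, with 0 calls, library totals alone gave 2 catalase genes and 783 genes, DESeq2 gave 3 and 1739, and leaving out 1 library gave 0 to 7 and 0 to 5102. In ΔaslA against ΔaslB, with 0 calls, DESeq2 gave 2 and 524, and leaving out 1 library gave 0 to 2 and 0 to 1282. The cause was not tested. Library totals alone moved the median log2 fold change of all genes to 0.10 in ΔaslB against MA234.1 and to -0.11 in ΔaslA against ΔaslB.

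Values that did not pass the test changed sign when 1 library was left out. In ΔaslB against MA234.1 the log2 fold change of ATCC64974_10470 ranged from -0.25 to 0.20 (-0.03 without MA234.1 replicate 2) and that of ATCC64974_61120 from -0.50 to 0.30. In ΔaslA against ΔaslB that of ATCC64974_5890 ranged from -0.36 to 0.51, catR from -1.22 to 0.57, the catB-like gene from -1.56 to 0.19, ATCC64974_33250 from -1.03 to 0.49 and ATCC64974_75270 from -0.68 to 0.92. Of the 27 list genes that the rule names, 17 kept their call in every alternative that gave an adjusted p (15 for 14 of them, and 14 for 3, AOX1, AO-I and ATCC64974_8390, to which DESeq2 gave none), and none changed sign. Same-numbered libraries did not deviate together (r between -0.058 and 0.038, against -0.044 to 0.065 for libraries of different number). No pairing by number was thus seen, but these values cannot show whether same-numbered samples were handled together. With the replicate block, 7 catalase genes and 4186 genes were called in ΔaslA against MA234.1, and 0 in either other comparison. At this depth, the weakest gene, ATCC64974_99540, was still above the 3-count level in every library.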
